A study of Mus musculus with 8 samples.

Results

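Molecular chaperones and their partners were followed in migrating PGCs (primordial germ cells, from which sperm and eggs later arise). The genes were taken by symbol. The rule took the chaperonin subunits (Cct genes and Tcp1), the prefoldin subunits with a Pfdn symbol, and the J-domain cochaperones Dnaja, Dnajb and Dnajc. It also took the heat shock protein families whose symbols start with Hspa, Hspb, Hspd, Hspe, Hsph or Hsp90. Of 19938 genes with a probe of their own on the array, 84 fitted this rule. They were 9 subunits of the cytosolic chaperonin, 5 prefoldins, 2 genes of the mitochondrial chaperonin, 13 of the Hsp70 and Hsp110 family, 2 of the Hsp90 family, 8 small heat shock proteins, 43 J-domain genes, and Hspbp1 and Hspbap1, which are named after Hsp partners. Hsp90ab1 and Hspa1b had no probe with a single gene symbol and were not analysed here as genes.

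The study sorted GFP-positive PGCs from the posterior part of single mouse embryos at embryonic day 9.5 and hybridised 1 microarray per embryo. There were 4 WT (Ror2+/+) embryos, of 25, 25, 22 and 21 somites, and 4 embryos homozygous for Ror2 Y324C, an amino acid change in the Wnt5a receptor Ror2, of 24, 22 to 23, 23 and 21 to 22 somites. The strain was mixed, both parents carried 1 mutant allele, and the Oct4-ΔPE reporter came from the father, so both groups carry the reporter. Ror2 was altered in the whole embryo, so the germ cells and the tissues around them share the genotype.

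Chaperones bind unfolded or newly made proteins and let them fold. Hsp70 proteins bind short stretches of chain, J-domain proteins deliver the chain and switch on the Hsp70 ATPase, and Hsp90 acts late on clients such as kinases and receptors. Prefoldin hands actin and tubulin to the chaperonin CCT (also called TRiC), a double ring built from related subunits that closes around its substrate. Heat shock factor 1 raises the heat-inducible members through heat shock elements, and the unfolded protein response raises the endoplasmic reticulum (ER) members through ER stress elements.

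All 11 markers of PGCs had probe values above the median of all gene means (5.61, log2), and their mean ran from 10.03 to 10.25 over the WT arrays and from 10.12 to 10.28 over the mutant arrays. Background values were not used here, so no limit of detection was set. WT 3 had the highest mean of 6 primitive erythroid markers, 5.45, where the remaining 7 arrays ranged from 4.68 to 5.13, and those of 5 macrophage, 5 hindgut and 5 trunk mesenchyme markers were also highest in WT 3 (5.83, 6.06 and 5.38). The 5 endothelial markers ran from 5.69 to 6.07. WT 3 also had the narrowest distribution, with an SD over genes of 1.77 against 1.82 to 1.95 elsewhere. The embryos were not of 1 sex: WT 3 (Xist at 7.07) and mutant 4 (6.31) were apart from the remaining 6 arrays (3.50 to 4.11), and Eif2s3y, on the Y chromosome, stood at 3.17 and 2.87 in them and between 7.86 and 8.75 elsewhere. In bulk samples of this kind, a lower share of a cell type and less RNA per cell cannot be told apart.

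The windows around the start sites of the genes show which members carry the letters of these response elements. RefSeq windows (GRCm38.p6, from 250 bases before to 50 after the start) were found for 70 of the 84 members. Hsp90aa1 and Hspa8 were among those without a window and were not searched. The heat shock element of 3 units, searched on both strands as GAA, TTC and GAA or as TTC, GAA and TTC with NN between the units, was found for 4 of 70 members (5.71%) and for 179 of all 27025 genes with a window (0.662%). The 4 were Hspd1, Hspe1, Hsph1 and Dnajb6, and the first 2 share their match. The start sites of Hspd1 and Hspe1, the mitochondrial chaperonin and its lid, lie 216 bases apart on opposite strands, and their windows have 285 bases in common. The shorter form of 2 units, GAANNTTC or TTCNNGAA, which overlaps the longer one, was found for 17 of 70 members (24.3%) and for 17% of all genes. The ER stress element, searched on both strands as CCAAT and CCACG with 9 bases of any kind between them, was found for 3 of 70 members (4.29%), Hspa5, Hsp90b1 and Dnajc3, and for 37 of all genes (0.137%). A match is a run of letters and was not tested as a binding site. Windows are shown for 5 members whose values are described below, written 5′ to 3′ on the strand of the gene. Capitals mark the matches to heat shock elements in the first 3 and to the ER stress element in the last 2.

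Hspe1 (chr1:55087898-55088197, plus strand): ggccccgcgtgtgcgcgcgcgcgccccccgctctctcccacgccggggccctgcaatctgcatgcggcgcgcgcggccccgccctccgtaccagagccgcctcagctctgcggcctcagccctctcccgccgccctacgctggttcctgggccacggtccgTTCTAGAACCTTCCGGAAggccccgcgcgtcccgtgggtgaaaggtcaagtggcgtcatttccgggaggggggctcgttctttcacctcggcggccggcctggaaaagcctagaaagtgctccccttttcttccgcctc

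Hsph1 (chr5:149636266-149636565, minus strand): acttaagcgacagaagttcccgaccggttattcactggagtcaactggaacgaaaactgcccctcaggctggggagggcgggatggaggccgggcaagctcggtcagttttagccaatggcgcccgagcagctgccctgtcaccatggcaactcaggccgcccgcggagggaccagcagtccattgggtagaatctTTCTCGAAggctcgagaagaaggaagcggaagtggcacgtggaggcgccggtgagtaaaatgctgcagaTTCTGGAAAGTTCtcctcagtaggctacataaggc

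Hspb1 (chr5:135887669-135887968, plus strand): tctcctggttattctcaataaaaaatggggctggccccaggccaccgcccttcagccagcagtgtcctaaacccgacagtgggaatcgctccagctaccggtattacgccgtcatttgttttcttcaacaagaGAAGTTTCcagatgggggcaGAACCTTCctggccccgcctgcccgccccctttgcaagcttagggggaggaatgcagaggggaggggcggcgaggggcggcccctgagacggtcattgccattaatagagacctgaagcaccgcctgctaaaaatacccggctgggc

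Hspa5 (chr2:34771840-34772139, plus strand): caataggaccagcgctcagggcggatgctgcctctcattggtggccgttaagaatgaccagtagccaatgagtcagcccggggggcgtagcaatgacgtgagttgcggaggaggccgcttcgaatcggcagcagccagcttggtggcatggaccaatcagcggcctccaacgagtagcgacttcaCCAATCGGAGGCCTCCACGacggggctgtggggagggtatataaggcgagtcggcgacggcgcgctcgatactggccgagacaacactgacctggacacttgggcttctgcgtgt

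Hsp90b1 (chr10:86705395-86705694, minus strand): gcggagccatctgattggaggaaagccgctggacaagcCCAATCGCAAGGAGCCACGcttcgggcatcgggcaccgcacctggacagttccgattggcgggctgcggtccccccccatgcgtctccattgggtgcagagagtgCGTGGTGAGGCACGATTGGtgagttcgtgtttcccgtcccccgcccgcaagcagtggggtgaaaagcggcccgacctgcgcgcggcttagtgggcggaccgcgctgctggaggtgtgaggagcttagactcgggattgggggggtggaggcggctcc

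The main comparison asked whether chaperone transcripts of PGCs differ between Ror2 mutant and WT embryos. No member passed: 0 of 84 had a limma adjusted p under 0.05, as did 0 (0%) of all genes. At an unadjusted p under 0.05 there were 2 members, Pfdn5 and Pfdn2, both with a higher mean in mutants. That is 2.38% of the members, where the share over all genes was 4.68% in either direction and 2.72% for a higher mean in mutants. The 4 mutant values did not lie wholly on 1 side of the 4 WT values for any of the 84 members, while they did so for 2.52% of all genes. The median difference of the members, mutant minus WT, was 0.03 on the log2 scale, with 48 of 84 above 0, and that of all genes was -0.02, with 44.6% above 0. Of the members, 64 had a mean above the median of all gene means. Among all genes above that level the median difference was 0.04 and 57.4% lay above 0, near the 57.1% of the members.

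**Figure D1:**
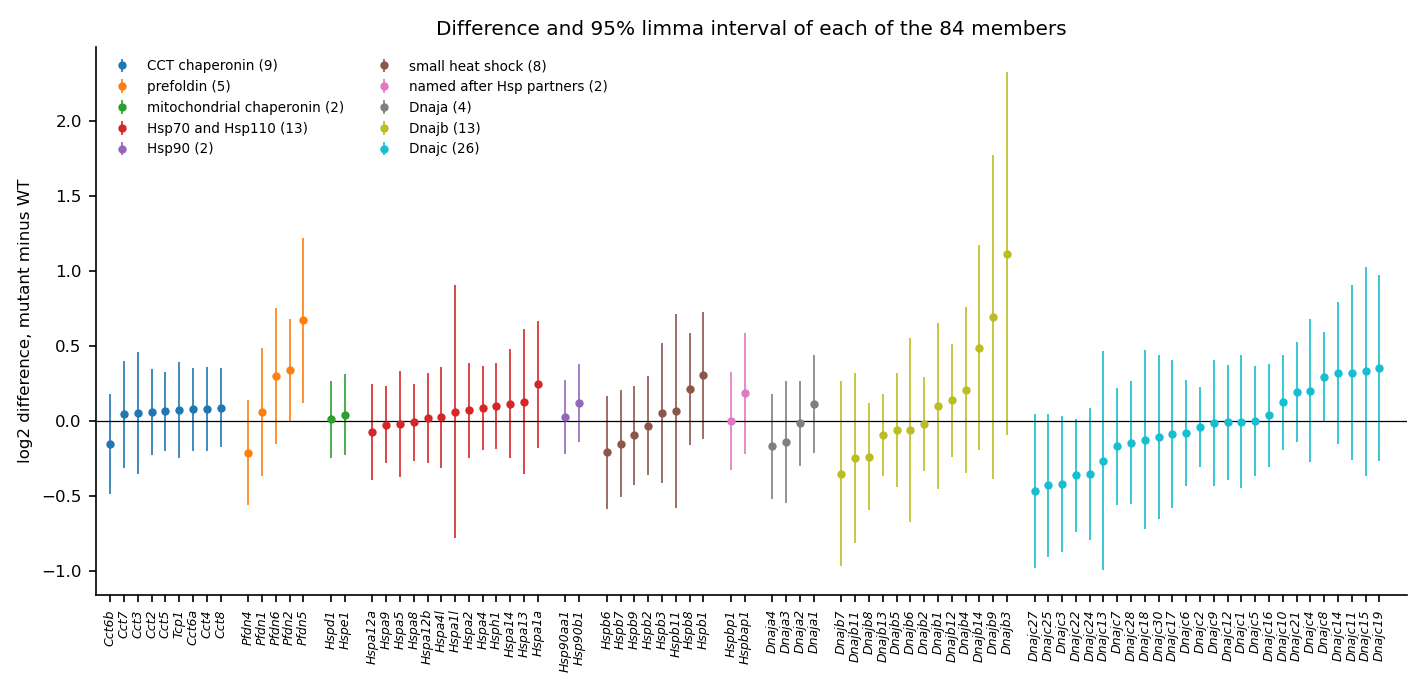
Difference on the log2 scale, mutant minus WT, of each of the 84 members by class, with the 95% limma interval as a bar and 0 as a line (y axis, log2 units; x axis, genes). The intervals of Pfdn2 and Pfdn5 lie above 0, and those of all other members include 0.

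The chaperonin CCT is built from the products of Tcp1, Cct2, Cct3, Cct4, Cct5, Cct6a, Cct7 and Cct8, and these 8 differed little between the groups. Their differences ran from 0.05 (Cct7 and Cct3) to 0.09 (Cct8), all slightly above 0. Over 15 alternatives of processing, the sign differed in 2 for Cct3, 1 for Cct6a, 4 for Cct7 and 1 for Tcp1. The median difference of the chaperonin genes, Cct6b included, was 0.07 and ran from -0.0034 to 0.11 over them. Cct8 had log2 values of 11.22, 11.21, 10.999 and 11.23 in WT 1 to WT 4 and of 11.20, 11.31, 11.29 and 11.22 in mutants 1 to 4. The groups overlapped, with WT 3 apart from the rest, and the difference was 0.09 ± 0.12 (SE), with an interval from -0.17 to 0.35. Cct4 had values of 10.91, 10.88, 11.24 and 11.02 in WT and of 11.08, 11.13, 11.06 and 11.12 in mutants. Here WT 3 was the highest array, and all mutants lay inside the WT range. Cct5 had values of 11.37, 11.21, 11.11 and 11.23 in WT and of 11.31, 11.21, 11.35 and 11.32 in mutants, again with overlap.

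Cct3 was the most variable subunit of the ring, at 11.03, 10.63, 10.72 and 10.58 in WT and at 10.88, 10.86, 11.10 and 10.32 in mutants. Mutant 4 was its lowest array, and the difference was 0.05 ± 0.18 (SE). Cct7 ran from 10.64 (WT 2) to 11.29 (WT 4) in WT and from 10.88 to 11.03 in mutants. Cct2 (0.06 ± 0.13), Cct6a (0.08 ± 0.12) and Tcp1 (0.07 ± 0.14) differed by less than their standard errors. Cct6b, a paralog of Cct6a known from the testis, had values from 3.53 to 3.96 in WT and from 3.45 to 3.90 in mutants, below the median of all gene means on every array, and differed by -0.15 ± 0.15. The widest interval among the ring subunits was that of Cct3, from -0.35 to 0.46.

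Prefoldin subunits with a Pfdn symbol had the highest median difference of the classes, 0.30, with 4 of 5 above 0. This median was 0.16 without WT 2 and 0.47 without WT 1. Vbp1, a further prefoldin subunit, lies outside the symbol rule and was counted with the chaperonin partners. Its difference was 0.02 ± 0.24 (SE), and it is not part of the median. Pfdn5, a subunit also known to bind Myc, had values of 9.43, 8.45, 8.88 and 9.32 in WT 1 to WT 4 and of 9.41, 9.61, 9.49 and 10.25 in mutants 1 to 4. Mutant 4 was highest and WT 2 lowest, and WT 1 lay just above mutant 1, so the groups overlapped. The difference was 0.67 ± 0.25 (SE), or 1.59-fold, with an interval from 0.12 to 1.22, an unadjusted p of 0.0219 and a limma adjusted p of 0.973. Pfdn2 had values of 10.56, 9.997, 9.97 and 10.16 in WT and of 10.55, 10.42, 10.46 and 10.61 in mutants. WT 1 lay among the mutants and the other WT arrays below them, and the difference was 0.34 ± 0.15 (SE; interval 0.00 to 0.68; unadjusted p 0.0481, limma adjusted p 0.973). Without WT 2 the limma difference of Pfdn5 was 0.48 (unadjusted p 0.0665) and that of Pfdn2 0.29 (0.123). Without WT 3 and mutant 4 together, the limma difference of Pfdn5 was 0.44 (unadjusted p 0.125) and that of Pfdn2 0.24 (0.201). Over the alternatives tried the limma adjusted p ran from 0.544 to 1 for Pfdn5 and from 0.53 to 1 for Pfdn2.

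The intervals of the other prefoldins included 0. Pfdn6 had values of 10.55, 9.56, 9.85 and 9.99 in WT and of 10.49, 10.36, 10.05 and 10.26 in mutants, a difference of 0.30 ± 0.20 (SE; interval -0.15 to 0.75). Pfdn1 ran from 9.24 to 9.93 in WT and from 9.47 to 9.90 in mutants. Pfdn4 was the member of opposite sign, at 8.50, 8.96, 8.51 and 8.54 in WT and 8.48, 8.51, 8.13 and 8.55 in mutants, a difference of -0.21 ± 0.16. WT 2 alone stood high and mutant 3 alone stood low, while the other 6 arrays lay within 8.48 and 8.55.

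**Figure D2:**
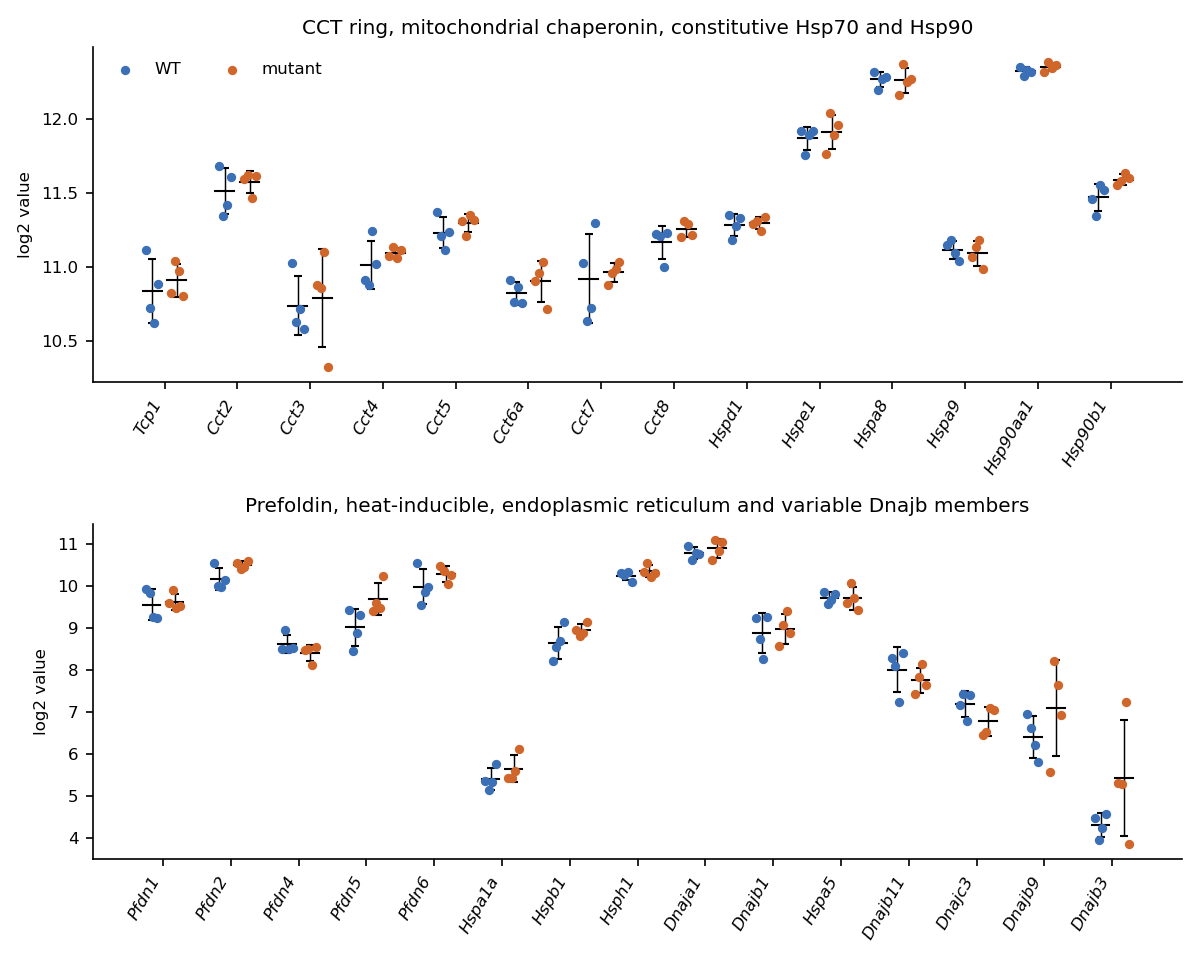
Log2 values of the members named on the axis on the 8 arrays (y axes, log2 units; x axes, genes), with WT in blue and mutants in orange, 1 point per embryo, a line at the group mean and bars of 1 SD (n = 4 each). The 2 panels have different scales, and levels of different probes are not comparable. Points of the 2 groups overlap for every gene, and Dnajb3 and Dnajb9 spread most.

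Mitochondrial protein folding rests on the chaperonin Hspd1 (Hsp60), its lid Hspe1 (Hsp10) and the Hsp70 of the matrix, Hspa9. Hspd1 had values of 11.35, 11.18, 11.28 and 11.33 in WT and of 11.29, 11.31, 11.24 and 11.34 in mutants. Hspe1 had values of 11.92, 11.76, 11.89 and 11.92 in WT and of 11.76, 12.04, 11.89 and 11.96 in mutants. These genes share most of the window printed above. WT 2 was the lowest array for Hspd1 and, close to mutant 1, for Hspe1, and the differences were 0.01 ± 0.11 for Hspd1 and 0.04 ± 0.12 for Hspe1 (SE). Hspa9 ran from 11.04 to 11.18 in WT and from 10.99 to 11.18 in mutants, a difference of -0.02 ± 0.12.

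In the cytosol, Hspa8 (Hsc70) is the Hsp70 that cells make without stress. It had values of 12.32, 12.20, 12.27 and 12.29 in WT and of 12.16, 12.37, 12.25 and 12.27 in mutants. The difference was -0.01 with an interval from -0.26 to 0.25. Hsp90aa1, a cytosolic Hsp90, had values of 12.35, 12.29, 12.33 and 12.32 in WT and of 12.32, 12.38, 12.35 and 12.36 in mutants, a difference of 0.03 with an interval from -0.22 to 0.27. The whole range over 8 embryos was 0.09 for this gene. Hsph1 and Hspa4, of the Hsp110 group that exchanges nucleotides on Hsp70, differed by 0.10 ± 0.13 and 0.09 ± 0.13 (SE).

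The heat-inducible members were compared next. Hspa1a, the classical inducible Hsp70, had values of 5.35, 5.15, 5.34 and 5.76 in WT and of 5.43, 5.43, 5.60 and 6.11 in mutants. Its mean lay at 5.40 ± 0.26 in WT and 5.64 ± 0.32 in mutants (SD, n = 4), and the difference was 0.24 ± 0.19 (SE). Hspa1a and Hspa1b are nearly identical, so this probe cannot be assigned with certainty to 1 of them. A further probe that the annotation gives to both had values from 6.17 to 6.64 in WT and from 6.10 to 6.65 in mutants, and differed by -0.05 ± 0.16. Hspb1 (Hsp25), a small heat shock protein that holds unfolded chains and binds actin, had values of 8.22, 8.56, 8.69 and 9.14 in WT and of 8.97, 8.82, 8.88 and 9.16 in mutants. WT 1 was lowest, WT 4 and mutant 4 were highest, and the difference was 0.30 ± 0.19 (SE; interval -0.12 to 0.72). Dnajb1 (Hsp40) ran from 8.26 (WT 3) to 9.27 (WT 4) in WT and from 8.58 to 9.41 in mutants, a difference of 0.10 ± 0.25. Dnaja1, the J-domain partner of Hspa8, differed by 0.11 ± 0.15. Its other single-symbol probe gave 0.33 ± 0.22, and a probe annotated to Mir207 and Dnaja1 together gave -0.04 ± 0.15.

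Of all 8 small heat shock genes, Hspb1 included, 4 lay above 0, and the median difference was 0.01. Hspb8 had a difference of 0.22 ± 0.17, Hspb6 of -0.21 ± 0.17 and Hspb7 of -0.15 ± 0.16 (SE). Hspb11, named with this family but known as a part of the intraflagellar transport complex, ran from 6.81 to 8.10 in WT and from 7.03 to 7.83 in mutants.

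The ER members were compared with the ER stress element in view. Hspa5 (BiP), the Hsp70 of the ER, had values of 9.87, 9.57, 9.67 and 9.82 in WT and of 9.59, 10.09, 9.73 and 9.45 in mutants, a difference of -0.02 ± 0.16 (SE). Hsp90b1 (Grp94), the Hsp90 of the ER, had values of 11.46, 11.35, 11.56 and 11.52 in WT and of 11.55, 11.58, 11.64 and 11.60 in mutants. Its mutant values lay in the upper part of the WT range or above it, with a difference of 0.12 ± 0.12 and an interval from -0.14 to 0.38. Dnajc3, known as an inhibitor of the kinase PERK and as an ER cochaperone, had values of 7.17, 7.44, 6.78 and 7.40 in WT and of 6.45, 6.52, 7.09 and 7.05 in mutants. Mutants 1 and 2 lay below all WT arrays, mutants 3 and 4 did not, and the difference was -0.42 ± 0.20 (interval -0.87 to 0.03). Dnajb11, a BiP cochaperone, differed by -0.25 ± 0.26. Dnajb9, a BiP cochaperone that acts on the sensor Ire1, had values of 6.95, 6.61, 6.22 and 5.80 in WT and of 5.56, 8.22, 7.65 and 6.92 in mutants. Mutant 1 was its lowest array and mutant 2 its highest, and the difference was 0.69 ± 0.49.

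J-domain genes as a whole lay on both sides of 0, with 17 of 43 above it. Among the Dnajb genes 6 of 13 were above 0 and among the Dnajc genes 10 of 26. Dnajb3, known from spermatids, had the largest difference of the members when all 8 arrays were used. Its mean over the arrays, 4.86, lay below the median of all gene means. It had values of 4.48, 3.94, 4.24 and 4.56 in WT and of 5.30, 5.30, 7.23 and 3.85 in mutants. Mutant 3 was far above and mutant 4 below all other arrays, and the difference was 1.12 ± 0.55 (SE; interval -0.09 to 2.33). Without mutant 3 it was 0.51, below the 0.74 of Pfdn5 in the same fit. Dnajb14, an ER membrane protein, ran from 4.71 to 5.29 in WT and had 4.71, 5.68, 6.29 and 4.97 in mutants. Dnajc8, a protein linked to splicing, had 9.84, 9.69, 9.68 and 9.55 in WT and 10.22, 9.81, 9.99 and 9.92 in mutants, a difference of 0.29 ± 0.14 with an interval from -0.01 to 0.60. Dnajc27, Dnajc25, Dnajc22 and Dnajc24 had the most negative differences beside Dnajc3, at -0.46, -0.43, -0.36 and -0.35. Hspa4, the small heat shock genes other than Hspb1, Dnajb8, Dnajb11 and these Dnajc genes, Dnajc3 and Dnajc8 included, were named after their values were seen. Dnajc13, which acts on endosomes, was measured by 15 probes whose differences ran from -0.28 to 1.21, with 9 above and 6 below 0, and the probe of highest mean gave -0.26 ± 0.33. The mean of all its probes gave 0.23, of opposite sign, and 3 probes had an unadjusted limma p under 0.05, all with a higher mean in mutants.

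Beside Cct6b and Dnajb3, whose differences of -0.15 and 1.12 are given above, further members are known from the testis. Hspa2 ran from 5.16 to 5.50 in WT and from 5.32 to 5.71 in mutants, a difference of 0.07 ± 0.14 (SE). Hspa1l had values of 4.62, 5.20, 4.82 and 6.74 in WT and from 5.31 to 5.47 in mutants. WT 4 alone stood high, which made the WT SD 0.96 against 0.07 in mutants. Hspb9 and Dnajb8 had differences of -0.09 ± 0.15 and -0.24 ± 0.16.

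The embryos also served to ask how evenly the members are expressed from embryo to embryo. Over all genes the median SD over the 8 arrays was 0.244, and for 43 of the 84 members the SD was below this. Of the 9 chaperonin genes, 8 were below it, of the 13 Hsp70 and Hsp110 genes 10, of the 43 J-domain genes 16, and of the 5 prefoldins 1. Among the 9969 genes above the median level, 3790 were below this SD. Above that level lay 8 chaperonin genes, 7 Hsp70 and Hsp110 genes, 33 J-domain genes and all 5 prefoldins. Hsp90aa1 had an SD of 0.0297, and 2 of the 19938 genes had a smaller one. Hspd1 (0.0566), Hspa8 (0.0646), Hspa9 (0.0700) and Cct5 (0.0872) followed, with 36, 65, 85 and 246 genes of smaller SD. At the other end stood Dnajb3 (1.10), Dnajb9 (0.900), Hspa1l (0.631), Dnajb14 (0.562) and Dnajc13 (0.553), the 5 members of largest SD. Of these, Dnajb3, Hspa1l and Dnajb14 had means below the median of all gene means (4.86, 5.38 and 5.17).

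Spread differed with signal, so these ranks are a description of probes. The median SD was 0.0803 for the 61 genes with a mean of 12 or more and 0.146 for the 111 genes from 11 to 12. It was 0.180 for the 315 genes from 10 to 11, 0.273 for the 2434 genes from 8 to 10, and 0.314 for the 5369 genes from 6 to 8. It was lower again at low signal, at 0.227 for the 8922 genes from 4 to 6 and 0.203 for the 2726 genes under 4. Hsp90aa1 thus lay below the median of the genes of its own level, while Hspa8, at 0.0646, lay closer to it. The scale mattered too. After quantile normalization 14 genes had a smaller SD than Hsp90aa1, and after median centring 433. For Hspd1, Hspa8, Hspa9 and Cct5 these counts were 61, 78, 483 and 65 after quantile normalization. After median centring they were 568, 1142, 1987 and 3322. The median SD of the members was 0.239 as deposited, 0.220 after quantile normalization and 0.246 after median centring. Over all genes it was 0.244, 0.228 and 0.232. The choice of probe mattered for Hspa8: the SDs of its 3 probes were 0.0646, 0.0822 and 0.253, the last ranging from 10.42 to 11.10. The 3 probes of Hsp90aa1 had SDs from 0.0297 to 0.0664, and the pairs of probes of Hspd1 and Hspe1 agreed more closely (0.0566 and 0.0586, 0.0947 and 0.110). Several loci with near-identical sequence can feed such probes, which is a further limit for these genes.

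**Figure D3:**
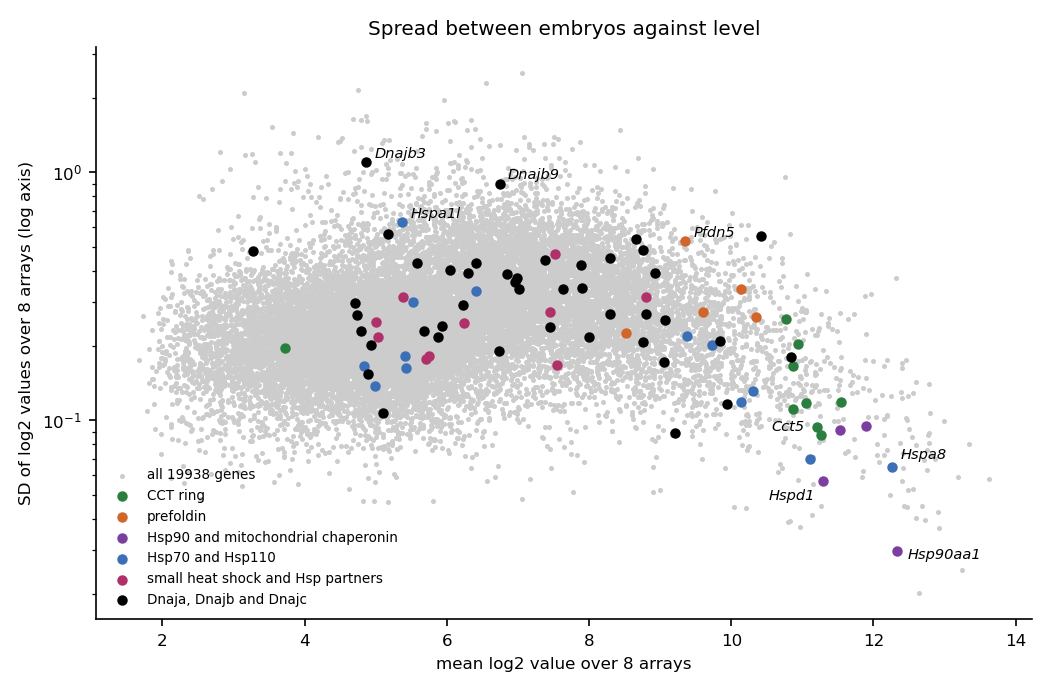
SD of log2 values over the 8 arrays (y axis, log scale) against the mean log2 value (x axis) for all 19938 genes in grey and the 84 members in colour by class. Hsp90aa1 lies near the lower edge at a mean of 12.34, and Dnajb3 and Dnajb9 near the upper edge.

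Setting each gene against its own mean over the 8 arrays shows which embryos stood high or low. The median deviation of the chaperonin genes was -0.15 in WT 2 and -0.13 in WT 3, where the remaining 6 arrays lay between 0.01 and 0.08. The prefoldins had -0.345 in WT 2, -0.338 in WT 3, -0.145 in WT 4 and 0.213 in WT 1, against -0.089 to 0.222 in mutants. WT 2 was also lowest for the Hsp90 genes (-0.11) and the mitochondrial chaperonin (-0.12). The small heat shock genes ran the other way in part, lowest in WT 1 (-0.23) and mutant 3 (-0.20) and highest in WT 4 (0.20). Over all genes the same deviation ran from -0.054 to 0.072 and was highest in WT 3. Over the genes above the median level, where 8 of the 9 chaperonin genes and all 5 prefoldins lie, it ran from -0.052 to 0.052 and was lowest in WT 3, with -0.019 in WT 2. The other-cell markers and the narrow distribution of WT 3 given above move with its low prefoldin and chaperonin values, and their part in these was not tested. In WT 2 the erythroid mean was 4.93 and the macrophage mean 5.19, the lowest of the 8.

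**Figure D4:**
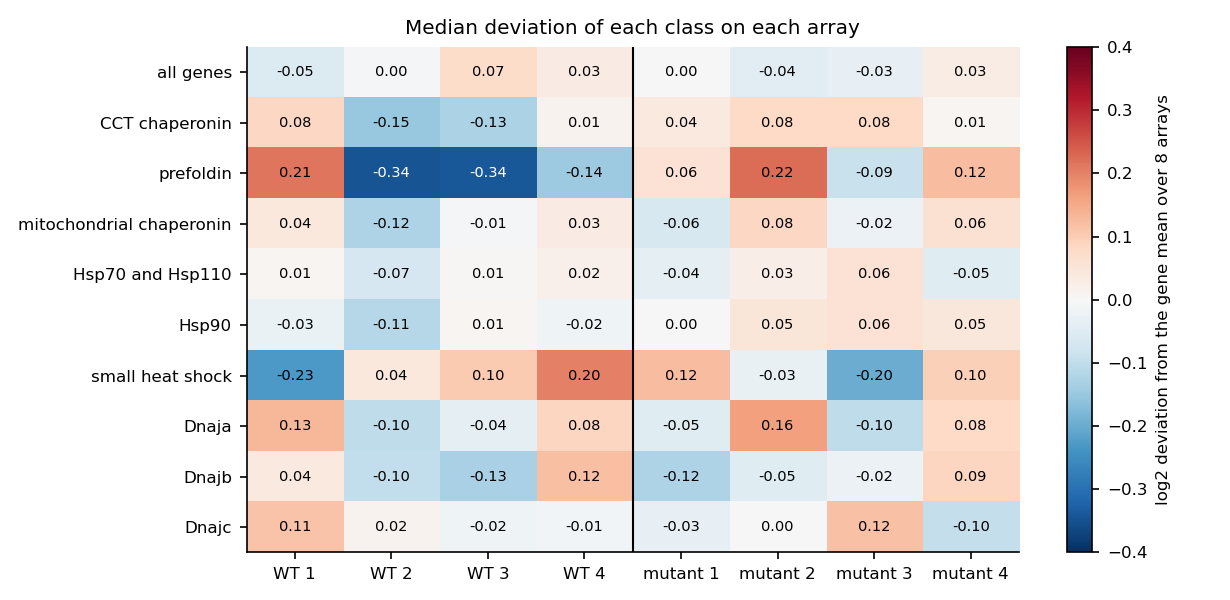
Median over the genes of each class of the deviation from the gene's own mean over the 8 arrays (colour and printed value, log2 units), by class (rows) and array (columns), with a line between WT and mutants. The lowest cells are the prefoldins in WT 2 and WT 3, at -0.345 and -0.338.

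Stage was tested through the somite number, with genotype in the model. No member passed: 0 of 84 had a limma adjusted p under 0.05, as did 0 (0%) of all genes. At an unadjusted p under 0.05 there were 8 members (9.52%), 4 with a positive and 4 with a negative slope, where the share over all genes was 9.74%. Dnajc19, a part of the mitochondrial import motor, had the steepest positive slope of these, 0.24 ± 0.07 log2 units per somite (SE; unadjusted p 0.00451, limma adjusted p 0.400). Its values were 9.34, 8.78, 8.05 and 8.16 in the WT embryos of 25, 25, 22 and 21 somites and 9.11, 9.26, 8.85 and 8.52 in mutants 1 to 4. Dnajc1, an ER J-domain protein, had a slope of 0.17 ± 0.05, Pfdn1 of 0.14 ± 0.05, and Hspbap1 of 0.13 ± 0.05.

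The 4 negative slopes at an unadjusted p under 0.05 belonged to 3 heat shock genes and 1 J-domain gene. Over all members, 44 of 84 slopes were above 0. Over all 19938 genes 8070 were, and over the 9969 genes above the median level 5839. Hspb1 had a slope of -0.14 ± 0.05 per somite (SE; unadjusted p 0.0198, limma adjusted p 0.474). On the probe used, its highest values lay in the youngest embryo of each group, WT 4 and mutant 4. On its other probe WT 4 was again highest in WT, but mutant 3 (8.942) lay just above mutant 4 (8.937). With the mean of both probes the slope was -0.13 (limma unadjusted p 0.0416). Hspa1a had a slope of -0.13 ± 0.06, Dnajb5 of -0.12 ± 0.05, and Hspa1l of -0.26 ± 0.11. The means of Hspa1a and Hspa1l, 5.52 and 5.38, lay below the median of all gene means. Without WT 4 the slopes of Hspa1l, Hspb1 and Hspa1a were -0.0023, -0.09 and -0.11 (limma unadjusted p 0.975, 0.201 and 0.201). That of Dnajb5 was then -0.17 (limma unadjusted p 0.0263). With the replicate number as a block the slope of Hspa1a was 0.02, of opposite sign, while those of Hspb1, Dnajb5 and Hspa1l stayed negative. Each somite number was carried by 1 or 2 embryos.

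**Figure D5:**
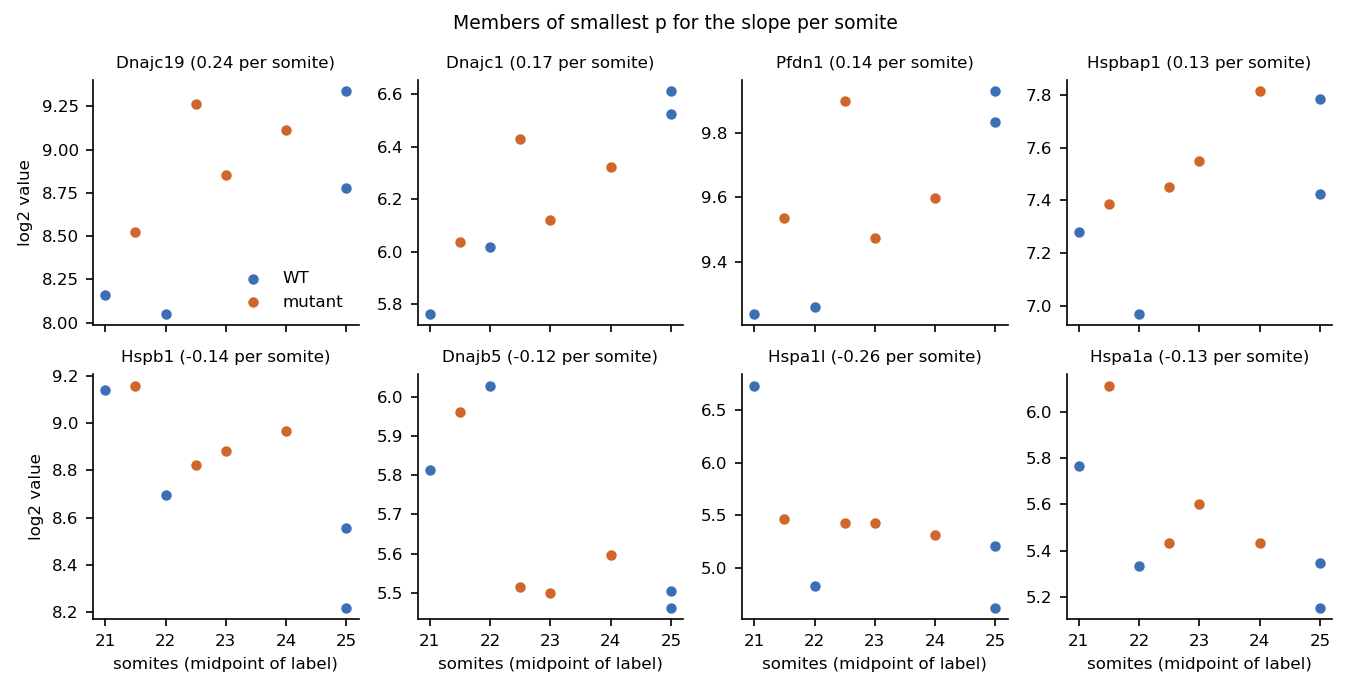
Log2 values (y axes) against somite number (x axes, midpoint where the label gives a range) for the 8 members of smallest p for the slope, with WT in blue and mutants in orange, 1 point per embryo. The 4 upper panels have positive slopes, from 0.13 to 0.24 per somite, and the 4 lower panels negative ones.

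Genes that work with the members were counted in the same fit. Of 13 cochaperones of Hsp70, 0 had an unadjusted p under 0.05, with 9 above 0 and a median of 0.03. Sil1, the nucleotide exchange factor of BiP, differed by -0.42 ± 0.20 (SE) and Bag3, a stress-induced Hsp70 partner, by 0.62 ± 0.31. Of 13 measured cochaperones of Hsp90, 10 were above 0 with a median of 0.14, and Fkbp8 and Fkbp5, both immunophilins, had the smallest p at 0.30 ± 0.17 and 0.33 ± 0.19. The list of heat shock factors held 4 measured genes. Among them Hsbp1 is not a factor itself but binds heat shock factor 1. It alone of the 4 had an unadjusted limma p under 0.05, where the share over all genes was 4.68%. Its values were 9.65, 9.07, 8.97 and 9.16 in WT and 9.74, 9.77, 10.17 and 9.37 in mutants. It differed by 0.55 ± 0.20 (unadjusted p 0.0209, limma adjusted p 0.973), and Hsf2 differed by 0.13 ± 0.14. Hsf1 was not analysed here.

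The chaperonin partners gave 8 of 16 above 0 and a median of 0.01, led by Bbs10 (-0.26 ± 0.16), a chaperonin-like protein, and Uxt (0.32 ± 0.22), a prefoldin-like one. Of 9 measured actin and tubulin genes, the main substrates of CCT, 6 were above 0 and 3 below, with a median of 0.06. At an unadjusted limma p under 0.05 there were 2, both with a higher mean in mutants. Over all genes the share in that direction was 2.72%. Tubb2b, a beta tubulin, had values of 7.63, 6.83, 6.94 and 6.17 in WT and of 8.02, 7.996, 8.29 and 7.37 in mutants. Mutant 4 lay below WT 1, and the difference was 1.03 ± 0.29 (SE; unadjusted p 0.00524, limma adjusted p 0.973). Tubb3, with a mean of 5.48 below the median of all gene means, differed by 0.55 ± 0.24. The 3 genes below 0 were Tubg1 (-0.64 ± 0.29), Tuba1a (-0.09 ± 0.17) and Actb (-0.01 ± 0.12). Of 18 other genes of ER folding and the unfolded protein response, 9 were above 0 with a median of -0.01, with Sel1l at -0.34 ± 0.17 and Herpud1 at -0.20 ± 0.12. Of 15 measured mitochondrial chaperones and proteases, 11 were above 0 with a median of 0.05, with Afg3l2 at 0.43 ± 0.23 and Htra2 at -0.30 ± 0.17. In these 7 lists 0 genes had a limma adjusted p under 0.05 for genotype or for the slope.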

How the data were processed

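PGCs of 8 single embryos, labelled as biological replicates, were measured on 1 array each, and only the deposited table of values was used. The authors' values lie on a log2 scale, as judged from the deposited values themselves. How background was corrected, arrays normalized and probes summarised was not stated in the labels used here. Of 35557 probes, 21789 carried 1 gene symbol, 1621 several and 12147 none, and a gene was read from its single-symbol probe of highest mean, which left 19938 genes. Mutants were compared with WT by limma 3.58.1 (R 4.3.3; lmFit, eBayes, Benjamini-Hochberg over all genes, threshold 0.05), and a second fit gave the slope per somite with genotype in the model. The fit was tested on simulated data, where 63.8% of genes changed by 1 log2 unit and 95.8% of those changed by 2 were recovered for mutant minus WT. Each of the 10 simulations changed 200 genes and drew normal noise for each gene independently. Shifts shared by many genes of an array were left out, so these rates need not hold for the real arrays. Precision is limited by the number of arrays, and the median SE of a difference was 0.17.

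The members and gene lists were chosen with earlier results of these data known. The text names all chaperonin and prefoldin members, the main heat shock genes, and members with an unadjusted p under 0.05. Also named are the 4 members of smallest slope p in each direction and the 5 of largest SD. From each list of partners the 2 genes of smallest p are named. Vbp1, Tubg1, Tuba1a and Actb were named after their values were seen. Alternatives were quantile normalization, median centring, a filter on level, the mean of all probes, stage as a covariate (or the slope without genotype), the replicate number as a block, leaving out each embryo, and leaving out WT 3 and mutant 4. The fit over all probes and the SD under other scalings were added after seeing the data.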

Additional observations from a re-analysis of the deposited data

Results flagged for a closer look

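Of 72 groups of 4 arrays looked at for the named members, 4 held 1 array far from the other 3 by Dixon's criterion, where chance gives about 1 in 20, or 3.6. Cct8 was at 10.999 in WT 3, against 11.21 to 11.23 in the other WT arrays. Pfdn4 was at 8.96 in WT 2, against 8.50 to 8.54 in the other WT arrays. Pfdn4 was also at 8.13 in mutant 3, against 8.48 to 8.55 in the other mutants. Hspe1 was at 11.76 in WT 2, against 11.89 to 11.92 in the other WT arrays.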

How the results depend on the processing

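Under all 15 alternatives 0 members passed the limma adjusted threshold, for genotype and for the slope. The 2 members at an unadjusted p under 0.05 for genotype became 1 after quantile normalization and 1 among genes above the median level. With the somite number as a covariate there were 4, and without WT 3 and mutant 4 also 4. The latter were Dnajb3, Dnajb11, Dnajc3 and Dnajc4, with neither Pfdn2 nor Pfdn5 among them. Leaving out 1 embryo gave 0 (without WT 2) to 7 (without WT 1). Shares over all genes were not counted in the alternative fits, so member counts under them have no background beside them. The 8 members for the slope became 5 after quantile normalization and 5 to 8 when 1 embryo was left out, with 5 without WT 1 and 5 without WT 3. The median difference of the Hsp90 genes was 0.0069 and that of the mitochondrial chaperonin -0.047 after quantile normalization, and the cause was not tested. The median of all genes was -0.02 as deposited and 0.01 after either scaling. Of 534 recomputed differences of 36 named members, 50 differed in sign from the main value, while for 19 members the sign never differed. Of the 534, 530 moved by less than the SD between replicates, but this count was largely fixed in advance. Leaving out 1 of 4 arrays cannot move a difference by that SD. The replicate block and the filter on level leave a difference unchanged. The replicate numbers did not pair the samples (correlations of the deviations of same-numbered arrays of -0.05, 0.04, -0.19 and 0.10). With the replicate block, 3 members had an unadjusted p under 0.05 for genotype and 1 for the slope, where Dnajc19 had a slope of 0.09. Signal over background was not analysed here.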

Other observations

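A pair of nearly identical probes annotated to Snord14d, Snord14c and Hspa8 together, small nucleolar RNAs encoded within Hspa8 introns and their host gene, gave a lower mean in mutants. The values were 9.12, 8.64, 8.19 and 7.96 in WT and 5.99, 8.24, 7.99 and 7.07 in mutants. The difference was -1.16 ± 0.50 (SE; limma over all probes, unadjusted p 0.0492, adjusted p 0.956). The groups overlapped, and mutant 1 was far below the rest. Of the 3 probes of Hspa8 alone, that of highest mean ran from 12.16 to 12.37, another from 12.12 to 12.39, and the last from 10.42 in mutant 1, its lowest array, to 11.10 in mutant 2.

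Probes shared by 2 symbols gave other values than the single-symbol probe for Dnajb6 and Dnajb14. The 4 probes of Gm4247 and Dnajb6 differed by 0.25 to 0.33 between mutants and WT, while the single probe of Dnajb6 had 7.42, 7.13, 7.48 and 7.61 in WT and 8.08, 7.26, 6.54 and 7.53 in mutants. The 2 probes of Dnajb14 and Pin4 differed by 0.00 and 0.01, against 0.49 ± 0.31 (SE) for the probe of Dnajb14.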
